A study of Mus musculus with 6 samples.

Results

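Acute phase, complement and clotting genes encode proteins that hepatocytes secrete into the blood. The 53 genes were chosen by name, with earlier results of these data known. They comprise 19 acute phase proteins, 3 fibrinogen chains, 3 genes of interleukin-6 signalling, 16 complement genes and 12 clotting and contact system genes. Of these, 52 had a probe set of their own, out of 18193 genes so measured on the array, and C3 was not analysed here. All 52 were bright enough to be tested among 13027 genes in all.

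Livers of 6 male mice aged 9 weeks were measured, with 1 mouse on each array. The 3 knockouts carried Alb-Cre:Keap1(flox/-), in which Cre driven by the albumin promoter, active mainly in hepatocytes, deletes the floxed copy of Keap1 while the other copy is null. The 3 controls carried Alb-Cre:Keap1(flox/+), with the same Cre and a floxed allele opposite a wild-type one. Both groups had received a vehicle of PBS (80%), DMSO (10%) and Cremophor-EL (10%). The null allele of the knockouts is present in every cell, not only in hepatocytes. KEAP1 is the adaptor through which NRF2 (gene Nfe2l2), a transcription factor of the antioxidant response, is ubiquitinated and degraded. Mice are called by their label numbers, knockouts 3, 4 and 5 and controls 1, 2 and 3.

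The acute phase response is the change in liver secretion during infection or tissue injury. Interleukin-6 acts through its receptor, the signalling subunit gp130 and STAT3, and together with interleukin-1 and the C/EBP factors it raises serum amyloid A, orosomucoid, lipocalin-2, haptoglobin and fibrinogen. SOCS3 ends the STAT3 signal. Complement components end in a membrane attack complex built from C5b, C6, C7, C8 and C9. The clotting and contact factors are proteases and cofactors made mostly by hepatocytes.

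Values are linear signal per probe set, which was compared between groups as log2(signal + 16), knockout minus control, in a fit across all genes (limma, Benjamini-Hochberg adjustment over the 13027 genes). A gene is said to have risen or fallen only if its adjusted p was below 0.05. As a check of the labels, Keap1 fell by 1.74 on the log2 scale (standard error 0.24, adjusted p = 0.0118) and Nfe2l2 by 0.66 (standard error 0.12, adjusted p = 0.0303), a call that was lost without knockout 3, without knockout 5, without any 1 control and after median centring. Where the Keap1 probes fall relative to the deletion was not examined. All 7 hepatocyte markers measured, among them Alb, Ttr and Cps1, were bright on every array, and their summed signal ranged from 176822 to 195995 in the knockouts and from 150912 to 169647 in the controls. In bulk liver, fewer cells of a type and less RNA per cell cannot be told apart.

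Of the 52 genes, 1 fell, Klkb1, and 0 rose, where 1.98% of all genes tested were called (1.04% higher and 0.944% lower). That is 1.92% of the 52, a share near the background. At an unadjusted p under 0.05 there were 16 of the 52, or 30.8%, where 15.2% of all genes had such a p. The groups did not overlap in 6 of the 52 with the knockouts higher, where 10.3% of all genes did so, and in 7 with the knockouts lower, where 10.9% did. The median difference was 0.02, beside -0.02 over all genes, and 34 of the 52 (65.4%) differed by less than 0.3 on the log2 scale, where 72.8% of all genes did. The difference was at least 2-fold in 6 of the 52, Saa1, Saa2, Saa3, Orm2, Orm3 and Lcn2, where 2.23% of all genes differed as much, and none of the 6 passed the threshold.

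**Figure D1:**
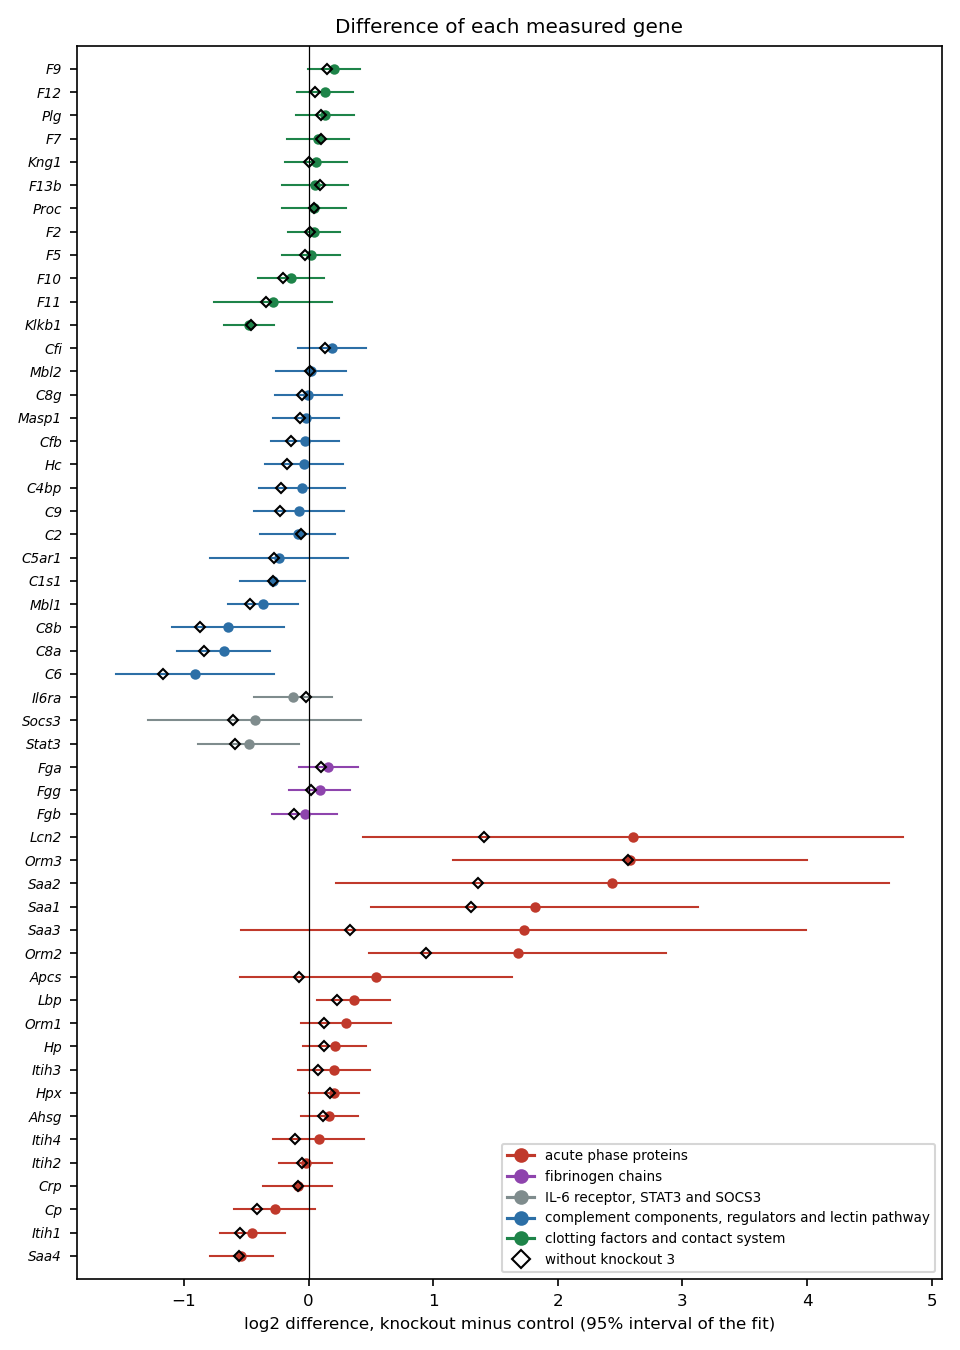
Log2 difference (x axis, knockout minus control) of each of the 52 measured genes (y axis, grouped and coloured by role), with dots for the fit on all 6 mice, lines for its 95% interval and open diamonds for the fit without knockout 3. The 6 acute phase genes beyond 1 move toward 0 without knockout 3, Orm3 the least (2.58 to 2.56), while Klkb1 lies at -0.48 with and at -0.47 without that mouse.

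Knockout 3 was the highest mouse for Saa1, Saa2, Saa3, Orm2, Lcn2 and Apcs, at least 2-fold above each other mouse in all of these but Saa1, and not for Orm3. Saa1 and Saa2 encode the major serum amyloid A proteins, apolipoproteins of high-density lipoprotein that rise steeply in inflammation. Saa1 had a signal of 32654, 7356 and 17146 in knockouts 3, 4 and 5, and of 8206, 2122 and 5384 in controls 1, 2 and 3. The groups overlapped, since control 1 lay above knockout 4. Its log2 difference was 1.81 with a standard error of 0.58 (adjusted p = 0.179). Saa2 had a signal of 26609.8, 2066 and 3797 in the knockouts and of 3735, 428 and 786 in the controls. Knockout 3 alone was 16.1 times the control mean, while knockouts 4 and 5 were 1.25 and 2.30 times it. The Saa2 difference was 2.44 with a standard error of 0.98 (adjusted p = 0.280).

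The mice fell in the same order, from high to low, for Saa1 and Saa2: knockout 3, knockout 5, control 1, knockout 4, control 3 and control 2. A further Saa1 probe set gave that order too, with a difference of 2.16 (standard error 0.66, adjusted p = 0.178 over 27022 probe sets). These readings are not independent. The annotation ties that further probe set and the Saa2 probe set to the same transcript, which RefSeq lists under Saa2, so the further probe set may read Saa2. The main Saa1 probe set is tied to a transcript that RefSeq lists under Saa1. How far the probe sets of each gene also read the other gene was not examined. Without knockout 3 the differences were 1.30 for Saa1 and 1.36 for Saa2 (adjusted p = 0.419 and 0.566). Without control 2, the lowest mouse, they were 1.27 and 1.78 (adjusted p = 0.359 and 0.515).

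Saa3 encodes the serum amyloid A that macrophages and other cells outside the liver also make. Its signal was 13902.5, 898 and 625 in knockouts 3, 4 and 5 and 905, 324 and 705 in controls 1, 2 and 3. Only knockout 3 lay outside the range of the controls, at 21.6 times their mean. The log2 difference was 1.72 with a standard error of 1.00 (adjusted p = 0.457), and 0.33 without knockout 3 (adjusted p = 0.818). Saa4, the constitutive member of the family, went the other way, with signals of 7183, 7905 and 6112 in the knockouts and of 10879, 9707 and 10127 in the controls. All 3 knockouts lay below all 3 controls, and knockout 3 lay between the other two. The Saa4 difference was -0.54 with a standard error of 0.11 (adjusted p = 0.0514), just short of the threshold, and its further probe set differed by -0.48 (adjusted p = 0.150 over all probe sets). It passed under 7 of 20 other settings, among them quantile normalization (-0.62, adjusted p = 0.0176). The 4 Saa genes are neighbours on chromosome 7.

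Lipocalin-2, encoded by Lcn2, binds bacterial siderophores and is made by inflamed hepatocytes, neutrophils and macrophages. Its signal was 27130.2, 2233 and 2238 in the knockouts and 346, 2072 and 796 in controls 1, 2 and 3. The groups did not overlap, but control 2 lay close under knockouts 4 and 5. The log2 difference was 2.60 with a standard error of 0.95 (adjusted p = 0.236), or 1.41 without knockout 3 (adjusted p = 0.420) and 1.99 without control 1 (adjusted p = 0.458). The order among the controls was the reverse of that for Saa1, with control 2 highest and control 1 lowest.

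Apcs encodes serum amyloid P, a pentraxin that is the main inducible one in mice. Its signal was 18453, 3621 and 7129 in the knockouts and 4901, 4681 and 6744 in the controls. Knockout 3 was again the highest and knockout 4 the lowest of all 6 mice. The difference was 0.54 with a standard error of 0.48 (adjusted p = 0.647), and it turned to -0.08 without knockout 3 (adjusted p = 0.951) and was 1.09 without knockout 4 (adjusted p = 0.228). Crp, the related pentraxin that reacts little to inflammation in mice, lay between 12332 and 14304 in the knockouts and between 12953 and 16741 in the controls. Its difference of -0.09 had a standard error of 0.12 (adjusted p = 0.794).

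The orosomucoids, or alpha-1-acid glycoproteins, are plasma carriers of basic drugs, and their 3 genes are neighbours on chromosome 4. Orm1 had a signal of 24939.6, 17469 and 16838 in the knockouts and of 17827, 14584 and 15108 in the controls, and the groups overlapped (log2 difference 0.30, standard error 0.16, adjusted p = 0.416, or 0.12 without knockout 3). Orm2 stood at 6893, 1360.4 and 1606 in the knockouts and at 832, 578 and 922 in the controls. All 3 knockouts lay above all 3 controls, and knockout 3 lay far above the rest. The Orm2 difference was 1.68 with a standard error of 0.53 (adjusted p = 0.173). Without knockout 3 it was 0.94 with a standard error of 0.21 (adjusted p = 0.111).

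Orm3 showed another pattern, since knockout 3 did not stand out. Its signal was 838, 1064 and 607 in knockouts 3, 4 and 5 and 329, 28.0 and 161 in controls 1, 2 and 3. The 3 knockouts lay within a 1.75-fold range and each was at least 3.51 times the control mean, while the controls differed among themselves by more. The log2 difference was 2.58 with a standard error of 0.63, or 5.98-fold (adjusted p = 0.0856). It was 2.56 without knockout 3 (adjusted p = 0.219), 1.75 without control 2 (adjusted p = 0.0541) and 3.24 without control 1, where it passed (adjusted p = 0.0407). The signal of control 2 lies near the offset of 16, so the fold depends on it, from 2.13 with an offset of 64 to 2.82 with an offset of 1 on the log2 scale.

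**Figure D2:**
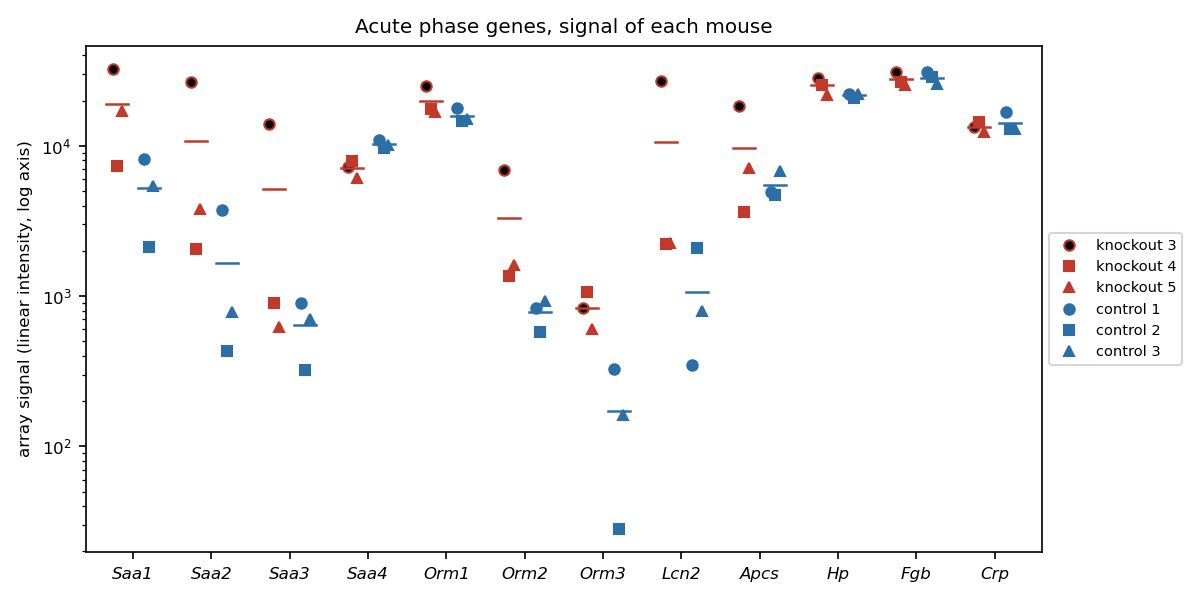
Array signal (y axis, linear intensity on a log axis) of 12 acute phase genes (x axis) in each of the 3 knockouts (red; knockout 3 filled black) and 3 controls (blue), with bars for group means. Knockout 3 lies above all other mice for Saa1, Saa2, Saa3, Orm2, Lcn2 and Apcs, and within the range of the other knockouts for Orm3 and Saa4.

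The sequences before the starts of 3 of these genes are given because their signals differed most between the groups, and C/EBP factors are the textbook activators of this gene class. They are the 250 bases before a start of transcription in RefSeq (GRCm38.p6), at chr4:63355908-63356157 on the plus strand for Orm3, chr7:46751583-46751832 on the plus strand for Saa2 and chr2:32387740-32387989 on the minus strand for Lcn2. For Orm3 the RefSeq gene begins at 63356069, inside this window, so the start used is not the first one of that gene. Capitals mark matches to TTNNGNAA, the C/EBP element, on either strand.
Orm3: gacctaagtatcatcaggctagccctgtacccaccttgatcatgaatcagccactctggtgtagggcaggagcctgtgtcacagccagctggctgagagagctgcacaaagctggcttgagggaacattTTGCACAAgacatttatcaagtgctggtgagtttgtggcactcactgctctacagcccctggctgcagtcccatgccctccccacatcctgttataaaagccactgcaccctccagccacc
Saa2: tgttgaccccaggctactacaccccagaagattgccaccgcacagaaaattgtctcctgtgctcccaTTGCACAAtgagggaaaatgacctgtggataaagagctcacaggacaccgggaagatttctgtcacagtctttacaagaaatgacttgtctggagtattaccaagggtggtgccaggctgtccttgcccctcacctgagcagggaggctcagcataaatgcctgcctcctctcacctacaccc
Lcn2: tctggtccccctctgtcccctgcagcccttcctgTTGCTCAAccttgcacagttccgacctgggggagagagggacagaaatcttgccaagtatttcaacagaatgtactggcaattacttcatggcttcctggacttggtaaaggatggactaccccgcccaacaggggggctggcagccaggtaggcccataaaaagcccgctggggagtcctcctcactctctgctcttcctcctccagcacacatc

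Each of the 3 windows holds 1 such match, 121 to 114 bases before the start in Orm3, 183 to 176 in Saa2 and 216 to 209 in Lcn2, with the same 8 letters in Orm3 and Saa2. The element is short, and 36.8% of all 32851 windows of this length in the table hold it. Of the 46 windows found for 43 of the 53 genes, 30 did so, or 65.2%, without matching for base composition. TTCNNNGAA, the STAT element, was in 7 of the 46 windows (15.2%, against 7.02% of all). CTGGGAA, an interleukin-6 response element, was in 4 (8.70%, against 9.10%), and TGACNNNGC, the core of the antioxidant response element that NRF2 binds, in 4 (8.70%, against 10.2%). None of these other 3 motifs was in the windows of Orm3, Saa2 or Lcn2. The windows of Orm2 and Orm3 were 89.4% identical over 245 aligned bases, and those of Saa1 and Saa2 95.6% over 249. Orm2 has a further match to the C/EBP element that Orm3 lacks, and Saa1 has a further one that Saa2 lacks. A match describes letters only and does not show that a factor binds.

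Apart from Itih1, the other acute phase proteins differed little by their brightest probe sets. Haptoglobin (Hp), which binds free haemoglobin, had a signal of 28348, 25441 and 21857 in the knockouts and of 22229, 20859 and 21995 in the controls, with knockout 5 inside the range of the controls (log2 difference 0.21, standard error 0.11, adjusted p = 0.422, or 0.12 without knockout 3). Hemopexin (Hpx), which binds free haem, stood at 30584, 29781 and 27838 in the knockouts and at 26324, 25464 and 24890.2 in the controls. The Hpx groups did not overlap, but the difference was only 0.20 (standard error 0.09, adjusted p = 0.326). The 7 hepatocyte markers had a median difference of 0.22, and 6 of them were higher in the knockouts without overlap. Lbp, which presents bacterial lipopolysaccharide to immune cells, stood at 5955, 4176 and 4862 against 3738, 3881 and 3918, again without overlap and with knockout 3 highest (0.36, standard error 0.13, adjusted p = 0.224, or 0.23 without knockout 3). Ceruloplasmin (Cp), the copper carrier of plasma, stood at 21233, 15782 and 15645 in the knockouts and at 23984, 19714 and 19472 in the controls (-0.27, standard error 0.14, adjusted p = 0.417), or -0.42 without knockout 3 and -0.17 without control 1. Its 7 further probe sets ranged from -1.05 to 0.19. The lowest of these stood at 281, 160 and 213 in the knockouts and at 476, 381 and 525 in the controls. Its groups did not overlap, and it came close to the threshold (limma adjusted p = 0.0559 over all probe sets). The inter-alpha-trypsin inhibitor heavy chains Itih2, Itih3 and Itih4 and fetuin-A (Ahsg) lay between -0.02 and 0.20. Itih1, chosen after its values were seen, was lower in all 3 knockouts, at 8023, 6702 and 6334 against 10158, 8674 and 9890.3 (-0.45, standard error 0.12, adjusted p = 0.0997).

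The fibrinogen chains, the precursor of the clot and a classical acute phase protein, differed by less than 0.2 on the log2 scale. Fga had a signal of 32994, 30551 and 27791 in the knockouts and of 29498.5, 27062 and 25232 in the controls (log2 difference 0.16, 95% interval -0.08 to 0.40). Fgb stood at 31067, 26770.1 and 25494 against 31011, 28475 and 25589 (-0.03, 95% interval -0.29 to 0.23). Fgg stood at 30738, 27954 and 25375 against 28682.5, 25476 and 24729.5 (0.09, 95% interval -0.16 to 0.34). In each chain the groups overlapped and knockout 3 was the highest mouse. The sign of these small differences depends on the scaling: all 3 were below 0 after quantile normalization and all 3 above 0 after median centring. The probe sets are among the brightest on the arrays, each near percentile 99.9 of mean log2 signal, and whether the scale is compressed there was not tested.

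Knockout 3 was the highest of the 6 mice in 25 of the 52 genes, where it was highest in 13.7% of all genes. The bright hepatocyte markers shared this trait. Knockout 3 was also highest for Apoa1, Ttr, Cps1, Tat, Hnf4a and Tdo2, though not for Alb, and for the summed signal of all 7 (195995). Control 1 was the highest in 20 of the 52, against 13.3% of all genes, and knockout 5 in 0, against 19.7%. Knockout 3 exceeded each other mouse at least 2-fold in only 11 of the 13027 genes, or 0.0844%, and 5 of those 11 were of the 52, Saa3, Lcn2, Saa2, Orm2 and Apcs. No other mouse exceeded all others 2-fold in any of the 52. The spread was a feature of both groups for some genes. The standard deviation of log2 signal was 1.08 among knockouts and 0.99 among controls for Saa1, 2.07 and 1.27 for Lcn2, but 2.43 and 0.75 for Saa3, beside medians of 0.18 and 0.19 over all genes.

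Markers of cells that also make Lcn2 and Saa3 were compared beside these values. Of 10 neutrophil markers 8 were measured, with a summed signal of 1409 in knockout 3, 808 and 1266 in the other knockouts and 1122 to 1372 in the controls. Of the 6 that were tested, 4 lay below the controls and 0 were called, with a median log2 difference of -0.34. Ngp was lower in all 3 knockouts without overlap, at 192, 162 and 198 against 209, 256 and 257. S100a8, a neutrophil alarmin, was highest in knockout 3 at 306, where the other mice ranged from 54.7 to 148. Its partner S100a9 stood at 201 in knockout 3 and at 217 in control 2. None of the 8 was under 16 on every array. The 8 markers of Kupffer cells and macrophages summed to 15951 in knockout 3, 12171 to 12699 in the other knockouts and 8871 to 15208 in the controls. Marco, a scavenger receptor of macrophages singled out after its values were seen, stood at 769.6, 492 and 387 in knockouts 3, 4 and 5 and at 298, 98.6 and 225 in the controls. It was the only one of these 8 whose groups did not overlap, with knockout 3 highest (log2 difference 1.40, adjusted p = 0.111). Their part in the result was not tested.

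**Figure D3:**
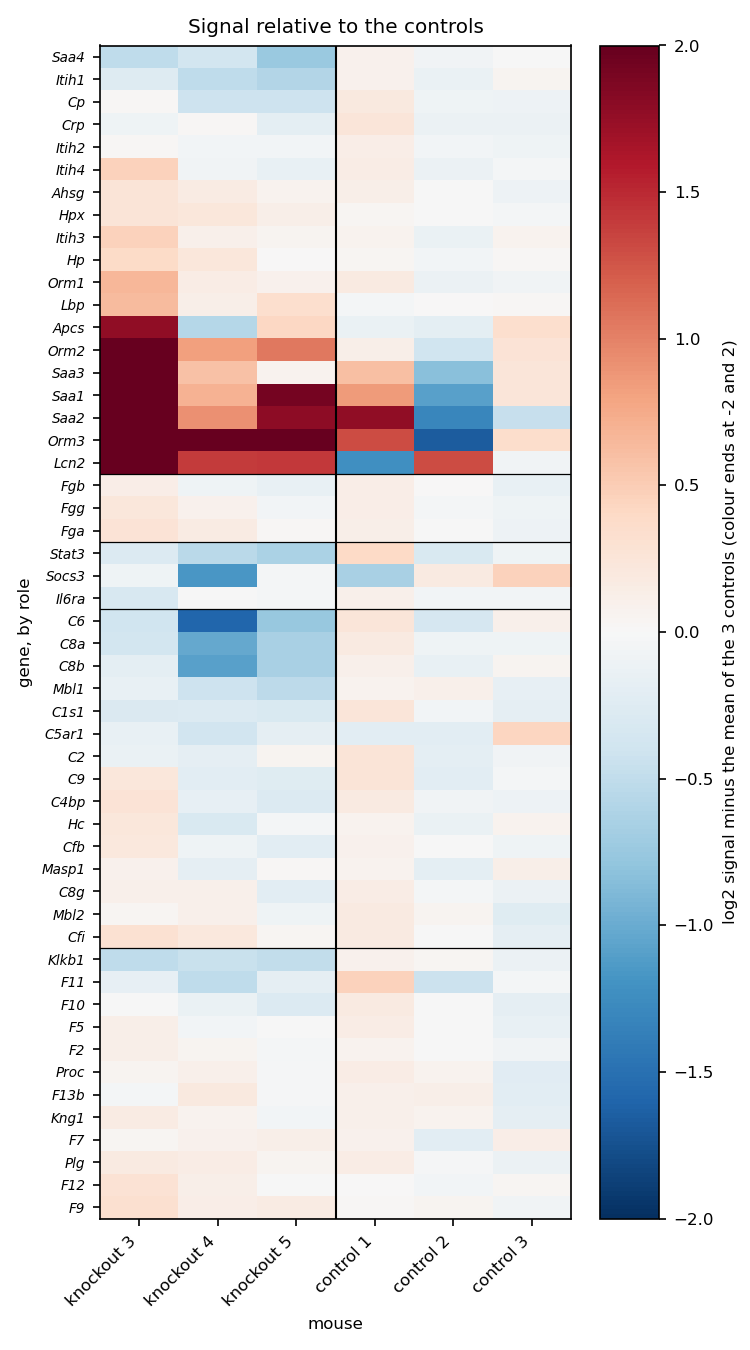
Log2 signal of each of the 52 measured genes (y axis, grouped by role) in each mouse (x axis), minus the mean of the 3 controls, on a colour scale that ends at -2 and 2. Knockout 3 is red for Saa1, Saa2, Saa3, Orm2, Lcn2 and Apcs, and knockouts 4 and 5 are also red for Saa1, Saa2, Orm2 and Lcn2. All 3 knockouts are red for Orm3, and all 3 are blue for Saa4, Itih1, C6, C8a, C8b, C1s1 and Klkb1.

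Genes of the interleukin-6 pathway did not follow the acute phase genes. Il6ra, the ligand-binding receptor chain, had a signal of 401, 507 and 491 in the knockouts and of 547, 490.3 and 487 in the controls (log2 difference -0.12, standard error 0.14, adjusted p = 0.730). Stat3 stood at 1847, 1532 and 1427 in the knockouts and at 2935, 1807 and 2094 in the controls, so the groups touched only through knockout 3 and control 2 (-0.48, standard error 0.18, adjusted p = 0.244, or -0.29 without control 1). Its 3 further probe sets differed by -0.47, -0.45 and -0.25. Socs3, itself induced by STAT3, stood at 204, 87.7 and 211 against 133, 249 and 307 (-0.43, standard error 0.38, adjusted p = 0.639), and from -0.76 without control 1 to -0.06 without knockout 4. Its further probe sets differed by -0.89 and -0.81 (neither past the threshold over all probe sets). Knockout 3 was not the highest mouse in any of the 3.

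Of 30 further genes of interleukin-6, interleukin-1 and STAT3 signalling and liver transcription factors, 24 were tested, 1 rose and 1 fell. Cebpd encodes C/EBP delta, an activator of acute phase genes. It rose in all 3 knockouts, with a signal of 1015, 810.2 and 1090.1 against 516, 460.4 and 441 (log2 difference 1.01, standard error 0.14, adjusted p = 0.0128). That call was lost without knockout 3, though the size was nearly the same (0.97, adjusted p = 0.0598), and when all its probe sets were averaged (0.65, adjusted p = 0.0523). Il6st encodes gp130, the signalling subunit shared by receptors of the interleukin-6 family. It fell, from 1704, 1883 and 1576 in the controls to 1168, 1231 and 1066 in the knockouts (-0.57, standard error 0.11, adjusted p = 0.0387). The Il6st call was lost without any 1 mouse (adjusted p from 0.0574 to 0.135) after median centring (0.216) and without the variance trend (0.116). Averaged over all its probe sets, the Il6st difference was smaller, at -0.37 (adjusted p = 0.271). Over the 24 genes the median was -0.07, beside -0.02 over all genes. Il6 itself was too dim to be tested.

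In a list of 20 further positive and negative acute phase genes, 16 were tested, 2 rose and 0 fell. The median was 0.16, beside -0.02 over all genes, and 13 lay above the controls, where 47.2% of all genes did. Since the list mixes both kinds of gene, its median has no single direction to read. The genes that rose were the metallothioneins Mt1 and Mt2, which bind zinc and copper and are also induced by metals and oxidative stress. Mt1 stood at 13429, 7403 and 10517 in the knockouts and at 1091, 619 and 858 in the controls (log2 difference 3.58, standard error 0.24, adjusted p = 0.000219). Mt2 stood at 8373, 5014 and 5209 against 431, 416 and 426 (3.78, standard error 0.18, adjusted p = 4.34e-05). Knockout 3 was the highest mouse in both, but knockouts 4 and 5 also lay far above every control.

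Complement genes were lower more often than higher, without a call. Of 15 tested, 13 lay below the controls, where 52.8% of all genes did, and the median was -0.08. That count depends on the scaling, as does the share of all genes below the controls. After quantile normalization 14 lay below, where 48.6% of all genes did. After scaling on the hybridisation controls 15 lay below, where 80.6% of all genes did. After median centring 6 lay below, where 37.7% of all genes did, although 12 of the 15 lay below the median of all genes there too. The largest differences were those of 3 components of the membrane attack complex. C6, which binds C5b to begin the complex, had a signal of 4415, 1919 and 3420 in knockouts 3, 4 and 5 and of 6859, 4570.0 and 6214 in controls 1, 2 and 3. All 3 knockouts lay below all 3 controls, with knockout 3 just under control 2 and knockout 4 lowest. Its log2 difference was -0.91 with a standard error of 0.28 (adjusted p = 0.164), and -0.58 without knockout 4 (adjusted p = 0.233).

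C8a and C8b encode the alpha and beta chains of C8, pore-forming relatives of C9. C8a stood at 11677, 7390.4 and 9635 in the knockouts and at 17034, 14243 and 14220.5 in the controls. C8b stood at 6444, 3473 and 4714 in the knockouts and at 7934, 6685 and 7680.4 in the controls. In both genes the groups did not overlap, knockout 4 was the lowest mouse and knockout 3 the highest knockout, the order seen for C6. The differences were -0.68 with a standard error of 0.16 for C8a (adjusted p = 0.0803) and -0.65 with a standard error of 0.20 for C8b (adjusted p = 0.164). Without knockout 3 both came nearer to the threshold, at -0.84 and -0.87 (adjusted p = 0.0582 and 0.0575). Without knockout 4, the lowest mouse, they were smaller, at -0.51 and -0.43 (adjusted p = 0.140 and 0.281).

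The other measured parts of the complex, named after their values were seen, lay near 0. C7 was not analysed here. C8g, the lipocalin-like gamma chain of C8, stood at 17050.4, 17128.5 and 13785 in the knockouts and at 17696, 15538.5 and 14685 in the controls (log2 difference -0.0014, 95% interval -0.27 to 0.27). C9, the chain that forms the ring of the pore, stood at 18182.5, 13414 and 13146 against 18533, 13471 and 15127 (-0.08, 95% interval -0.44 to 0.28). Hc, which encodes C5, stood at 17341, 12014 and 14459 against 15553, 13507 and 15547 (-0.04, 95% interval -0.35 to 0.28). The groups overlapped in all 3. Whether C8a and C8b differed from C8g in their response was not tested.

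Earlier steps of complement showed small differences, of which C1s1 and Mbl1 were chosen after their values were seen. C1s1, the protease of the first component, stood at 6904, 7009 and 6833 in the knockouts and at 9956, 8169 and 7432 in the controls, without overlap (log2 difference -0.29, standard error 0.12, adjusted p = 0.276, or -0.17 without control 1). Mbl1, a mannose-binding lectin, stood at 5540.2, 4606 and 4271 against 6454, 6618 and 5464, where only knockout 3 exceeded a control (-0.37, standard error 0.12, adjusted p = 0.203). C2, Cfb, Cfi, C4bp, Masp1 and Mbl2 lay between -0.09 and 0.19, and the C5a receptor C5ar1 at -0.24. A probe set shared by C4a and C4b, outside these counts, differed by 0.07 (limma adjusted p = 0.833 over all probe sets). Of 23 further complement genes 17 were tested, with 0 higher or lower past the threshold and a median of 0.06 (limma; 1 at an unadjusted p under 0.05). The largest differences among them were those of the ficolin Fcnb at -0.51 (adjusted p = 0.595) and of properdin, Cfp, at 0.39 (adjusted p = 0.405). Fcnb was -0.04 without control 3 and -0.94 without control 2, and Cfp was 0.18 without control 2.

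**Figure D4:**
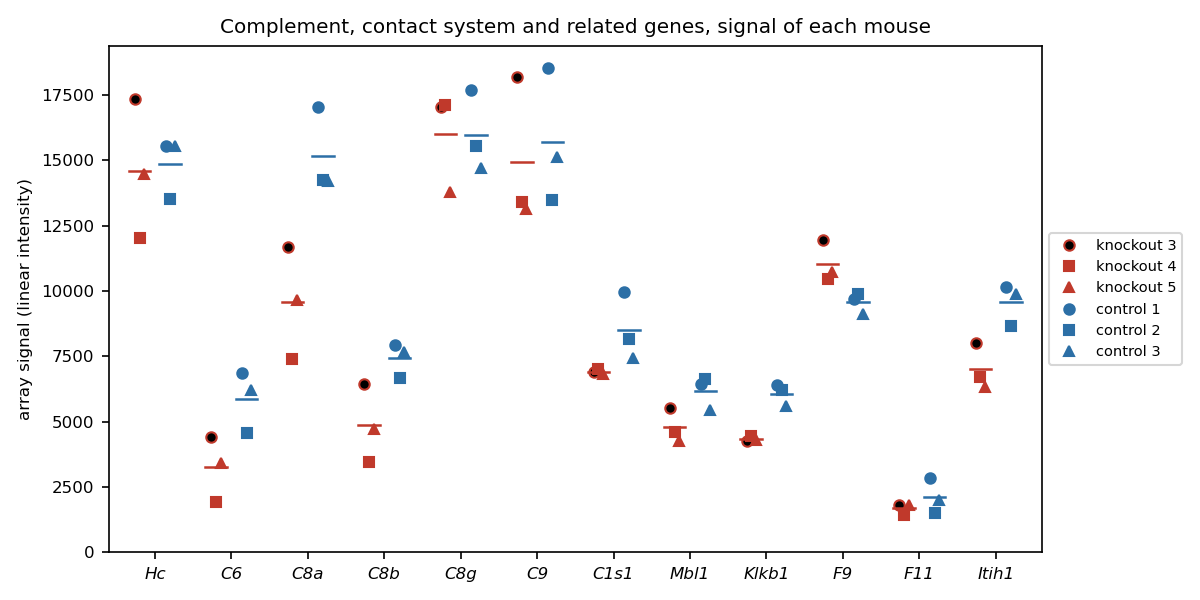
Array signal (y axis, linear intensity from 0) of 12 genes of complement, the contact system and related genes (x axis) in each of the 3 knockouts (red; knockout 3 filled black) and 3 controls (blue), with bars for group means. The knockouts lie below the controls without overlap for C6, C8a, C8b, C1s1, Klkb1 and Itih1, and overlap them for Hc, C8g, C9, Mbl1 and F11.

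Among clotting and contact genes Klkb1 fell. It encodes plasma prekallikrein, the protease precursor that cleaves kininogen to release bradykinin. Its signal was 4260.3, 4448 and 4317 in the knockouts and 6402, 6207 and 5601 in the controls, a close cluster of knockouts well below every control. The log2 difference was -0.48 with a standard error of 0.09, or 1.39-fold lower (adjusted p = 0.0333). The size held in every fit that left out 1 mouse, from -0.54 to -0.44, but the call was kept only without control 3 (adjusted p = 0.0440) and lost without knockout 3, 4 or 5 (0.139, 0.0756 and 0.0903) and without control 1 or 2 (0.108 and 0.115). It was also lost after median centring (-0.38, adjusted p = 0.289) and without the variance trend (0.131). The sequence before its start is shown because it is the gene of this group that changed, at chr8:45294836-45295085 on the minus strand (RefSeq, GRCm38.p6).
Klkb1: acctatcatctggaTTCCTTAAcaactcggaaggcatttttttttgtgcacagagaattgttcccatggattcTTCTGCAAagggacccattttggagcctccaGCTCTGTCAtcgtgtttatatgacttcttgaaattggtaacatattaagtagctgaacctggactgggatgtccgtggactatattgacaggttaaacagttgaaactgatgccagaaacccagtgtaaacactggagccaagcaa

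Capitals mark 2 matches to TTNNGNAA, 236 to 229 and 177 to 170 bases before the start, and 1 match to TGACNNNGC on the opposite strand, 146 to 138 bases before it. The 3 matches do not overlap. The last motif is in 10.2% of all windows, and a match is no evidence of a site.

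The other 11 clotting and contact genes differed by less than 0.3 in size. The largest of these differences were those of F11 and F9. F11, the factor that activates F9 in clotting, had a signal of 1820, 1443 and 1798 in the knockouts and of 2838, 1515 and 1995 in the controls, with overlapping groups (log2 difference -0.29, standard error 0.21, adjusted p = 0.564). That value depended on single mice, at -0.05 without control 1, -0.18 without knockout 4 and -0.50 without control 2. F9, the factor missing in haemophilia B, stood at 11940.5, 10448 and 10714 against 9690.1, 9883 and 9105, without overlap (0.21, standard error 0.09, adjusted p = 0.338). The median difference of the 7 hepatocyte markers was 0.22. Prothrombin (F2), factors F5, F7, F10, F12 and F13b, protein C (Proc), plasminogen (Plg) and kininogen (Kng1), the substrate of prekallikrein, lay between -0.14 and 0.13. Of 25 further clotting and fibrinolysis genes 20 were tested, with 0 past the threshold in either direction and a median of -0.03 (limma; 3 at an unadjusted p under 0.05). The largest differences were those of Pros1, the cofactor of protein C, at 0.60 (adjusted p = 0.125, or 0.81 and 0.0174 without knockout 4) and of the plasminogen activator Plat at -0.39 (adjusted p = 0.679, from -0.74 without control 1 to -0.13 without knockout 3 or without control 3).

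Without knockout 3 the count of genes past the threshold among the 52 was 0, where 0.706% of all genes were called. The median difference was -0.04, and 5 of the 52 differed at least 2-fold (2.46% of all genes). These were Saa1, Saa2, Orm3, Lcn2 and C6.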

How the data were processed

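Liver RNA of 3 Keap1 knockout and 3 control mice was measured on single-colour arrays, 1 mouse each. The deposited values are linear array intensity, 1 per probe set. Per the labels' protocols, biotin-labelled cRNA was hybridised. For the summarising software and the genome build, nothing was given in the sources used here. Trimming 2% from each end left a mean of 500.0 on every array, so the authors' intensity values share a scaling target, which hides a change in total RNA.

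From the deposited intensity, log2(signal + 16) was computed here. Probe sets were kept if their mean was at or above the 40th percentile, and a gene was its probe set with the highest mean among those with that symbol alone. Groups were compared in R 4.3.3 by limma 3.58.1, using lmFit and then eBayes with the trend option, as a two-sided test (Benjamini-Hochberg over 13027 genes, threshold 0.05). The fit was tested on simulated data with independent noise of the same spread in both groups. That simulation does not cover a single outlying mouse or an unequal spread of the groups. The 20 alternatives change the offset, filter, normalization, variance model, probe set choice, test or arrays, and fits without 1 array keep the probe sets chosen on all 6. Precision is limited by the number of arrays. The p-values set each difference against the spread between these mice, which the fit moderates with the spread of all genes tested. An exact permutation test of 3 against 3 cannot go below 0.1.

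The genes and lists were chosen with earlier results of these data known. Signals per mouse are given for genes past the threshold, those differing at least 2-fold, the inflammatory genes (Saa, Orm, Hp, Hpx, Lcn2, Lbp, Apcs, Crp, Cp, fibrinogen, Il6ra, Stat3, Socs3) and the 3 largest differences of each role. Of other lists, genes past the threshold are named, or else the 2 largest differences. Promoter sequences come from RefSeq (GRCm38.p6).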

Additional observations from a re-analysis of the deposited data

How the results depend on the processing

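Over 20 alternatives, 755 of 831 differences of 42 named genes kept their direction and their side of the threshold, 33 lost a call, 18 gained one and 25, in 10 genes, changed sign. The count of genes higher past the threshold, 0 of 52, was 1 after scaling on the hybridisation controls and 0 to 1 when 1 array was left out, the 1 being Orm3 (without control 1). The count lower, 1, was 2 with an offset of 64, the 60th percentile filter, robust eBayes or array weights, and 3 after quantile normalization or cyclic loess. It was 8 after scaling on the hybridisation controls, 0 by the Welch test, with median centring or with no variance trend, and 0 to 1 when 1 array was left out. Among all genes, 258 passed (135 higher, 123 lower), against 506 with hybridisation-control scaling, of which 87 were higher and 419 lower and where the median of all genes was -0.21, 77 without the trend, 0 by the Welch test (1334 at an unadjusted p under 0.05) and 92 to 171 with 1 array left out. Median centring gave 211 (137 higher, 74 lower). The causes were not tested.

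The sign changed mostly in small differences, but also in Apcs (0.54 in the main fit) and Plat (-0.39). Median centring gave 0.0935 for C8g, 0.0163 for C9, 0.0069 for Crp, 0.0643 for Fgb and 0.0561 for Hc. Array weights gave 0.0158 for C8g, 0.0038 for C9, 0.0005 for Fgb and 0.0441 for Hc. Quantile normalization gave -0.0411 for Fga and -0.0847 for Fgg, cyclic loess -0.0388 for Fgg, and scaling on the hybridisation controls -0.0391 for Fga and -0.1074 for Fgg. Il6ra was 0.0556 without probe sets that can match several transcripts, and Plat 0.1494 as the mean over probe sets. With 1 array left out the differences ranged from -0.0790 to 1.0931 for Apcs, from -0.0598 to 0.1018 for C8g, from -0.2296 to 0.0468 for C9, from -0.1499 to 0.0350 for Crp, from -0.1139 to 0.0361 for Fgb and from -0.1706 to 0.0938 for Hc.

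No paired analysis was possible because the groups share only replicate number 3 in the labels.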

Other observations

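Of the 11 genes in which knockout 3 exceeded each other mouse at least 2-fold, 6 were outside the acute phase, complement and clotting genes, and they were chosen after their values were seen. These were Psat1, Cap1, Fgf21, Slc3a2, Acnat2 and Tufm. Psat1, an enzyme of serine synthesis, had a signal of 506 in knockout 3 and of 53.3 to 169 in the others. Slc3a2, the heavy chain of amino acid transporters, stood at 4216 against 1434 to 1988. Fgf21, a stress-induced hepatic hormone, stood at 1954 against 300.0 to 835. The gaps of these 6 genes to the next mouse were at most that of Psat1, 1.497 on the log2 scale, below those of Saa3 (3.92), Lcn2 (3.59), Saa2 (2.80) and Orm2 (2.09). Apcs had a gap of 1.37, below those of Psat1 and Cap1 (1.38).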
